A study of Homo sapiens with 9 samples.

Results

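Glycolysis and hypoxia response genes were taken as the rows of the count table whose gene name was on a list of 41 genes, and all 41 were found among the 58735 genes listed. Of these, 39 passed the filter on low counts and were among the 16350 genes tested, whereas CA9 and SLC2A3 did not pass. RNA was sequenced from SKOV3 cells, an established human ovarian cancer cell line, in 3 groups of 3 libraries. The first group expressed WT CDK9, the kinase of the elongation factor P-TEFb that releases paused RNA polymerase. The second expressed WT CDK9 and received an ALK inhibitor for 24 h. The third expressed Tyr19Phe CDK9, in which a tyrosine that can be phosphorylated is replaced by phenylalanine, without the inhibitor. The study describes stable lines in which CDK9 was put back into cells depleted of the endogenous kinase. Whether the sequenced lines were single clones, and which inhibitor and dose were used for these libraries, is not given in the sources used here. The labels do not say that the libraries of a group came from separate cultures, so the p-values measure the spread between these libraries, which may be technical.

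Glycolysis splits glucose into pyruvate, and lactate dehydrogenase turns pyruvate into lactate so that the pathway can continue without mitochondrial respiration. Hypoxia-inducible factors (HIFs) are transcription factors whose alpha subunits are marked for destruction by prolyl hydroxylases while oxygen is present. When oxygen falls, the alpha subunits pair with ARNT and raise the transcription of genes for glucose uptake, glycolysis, pH control, blood vessel growth and matrix modification. Many tumor cells, ovarian cancer cells among them, run glycolysis at a high rate even with oxygen.

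The WT CDK9 libraries held 18939449 to 19731228 counts, the ALK inhibitor libraries 18169050 to 20974903 and the Tyr19Phe CDK9 libraries 26485891 to 29320184. A floor of 3 counts was between 0.102 and 0.165 counts per 1000000 (CPM, scaled by edgeR's TMM factors) in these libraries. Fewer genes were detected in ALK inhibitor replicate 2 (19944) than in its 2 companions (21911 and 21915). Tyr19Phe CDK9 replicate 3 had 20635, against 22609 and 22744 in the others. ALK inhibitor replicate 2 also stood apart on principal component 2, which held 17% of the variance (-51.6, beside 10.4 and 9.01 for its companions). WT CDK9 replicate 3 stood apart on principal component 3, which held 11.6%. Member calls that changed without these libraries are given both ways.

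All 8 genes of a list of epithelial and ovarian cancer markers were detected, and they summed to between 5173 and 6002 CPM per library. The highest single value among them was 2634 CPM, for ERBB2 in an inhibitor library. KRT8 had the highest mean in Tyr19Phe CDK9 cells (1695 CPM). Single markers differed from WT CDK9 cells in both directions at an edgeR adjusted p under 0.05. With Tyr19Phe CDK9, KRT19, EPCAM and ERBB2 were lower (log2 fold changes -1.24, -0.82 and -0.29), and KRT8 and KRT18 higher (0.38 and 0.39). With the inhibitor, ERBB2 and KRT19 were higher (0.54 and 0.21) and KRT7 was lower (-0.35). Lists of 5 leukocyte, 3 endothelial and 4 fibroblast markers summed to at most 0.717, 1.39 and 1.71 CPM in any library. CDK9 RNA, which does not separate the introduced from the endogenous gene, was at 48.4, 49.7 and 47.6 CPM in WT CDK9 cells, 43.8, 47.3 and 45.7 CPM with the inhibitor and 52.4, 53.1 and 59.5 CPM in Tyr19Phe CDK9 cells.

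A gene was called higher or lower at an adjusted p under 0.05, with edgeR's quasi-likelihood test and Benjamini-Hochberg adjustment over all 16350 tested genes. With the ALK inhibitor, 6 of the 39 tested members were called higher than in WT CDK9 cells, a share of 15.4% where 1.82% of all tested genes were called higher. They were ANGPTL4, CA12, DDIT4, SLC2A1, PKM and PGM2L1. Another 2 members, EPAS1 and BNIP3, were called lower, a share of 5.13% where 2.73% of all tested genes were. In Tyr19Phe CDK9 cells, 5 members were called higher than in WT CDK9 cells (12.8%, against 7.61% of all tested genes), namely DDIT4, SLC2A1, HK1, PFKP and PGM2L1. The 7 called lower (17.9%, against 10.4% of all tested genes) were HIF1A, EGLN1, CA12, BNIP3, PFKL, ENO2 and LDHA. These comparisons share the WT CDK9 libraries, so that their results are not independent of each other. Without regard to direction, the members changed less than all tested genes. With the inhibitor the median size of the log2 fold change was 0.104 over members and 0.126 over all tested genes. With Tyr19Phe CDK9 it was 0.133 and 0.181. No test of the list as a whole was made.

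The direct comparison of Tyr19Phe CDK9 cells with inhibitor-treated WT CDK9 cells tests whether the members differed between the interventions. There, 3 members were higher in Tyr19Phe CDK9 cells (7.69%, against 9.57% of all tested genes), namely EPAS1, DDIT4 and PGAM1. Another 8 were lower (20.5%, against 11.1% of all tested genes), namely HIF1A, EGLN1, CA12, SLC16A3, PFKL, ENO2, PKM and LDHA. The median log2 fold change of the tested members was -0.0026 with the inhibitor, -0.026 with Tyr19Phe CDK9 and -0.040 between the interventions. Over all tested genes the same medians were -0.0010, 0.0035 and 0.0018. Without regard to sign, the median between the interventions was 0.108 over members and 0.196 over all tested genes. In each comparison some members were called in either direction, and 31, 27 and 28 of the 39 were not called, in the same order. The members are described one by one below by their role.

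**Figure D1:**
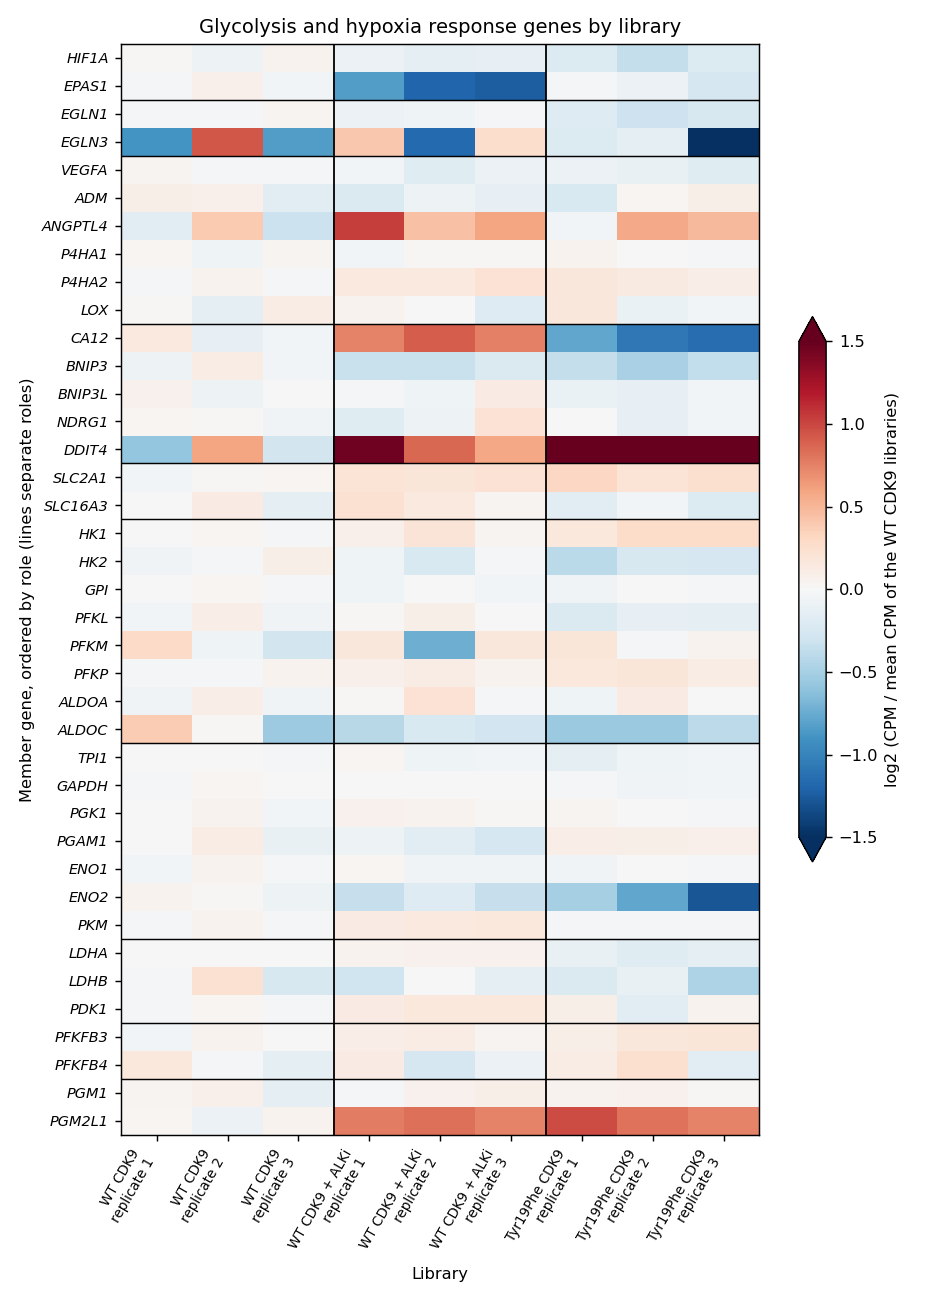
Heat map of the 39 tested members (rows, by role) in the 9 libraries (columns), colored by the log2 ratio of CPM to the mean CPM of the WT CDK9 libraries, with colors saturating at 1.5 in either direction. CA12 is red in the inhibitor libraries and blue in the Tyr19Phe CDK9 libraries, EPAS1 is blue with the inhibitor, DDIT4 and PGM2L1 are red in both, and most glycolytic enzymes are near white.

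The HIF alpha subunits were HIF1A and EPAS1, which encodes HIF2 alpha. EPAS1 (ENSG00000116016, GRCh38 chromosome 2 from 46293667 to 46386703) was at 89.8, 96.4 and 88.9 CPM in the WT CDK9 libraries. With the ALK inhibitor it was at 51.4, 40.1 and 39.1 CPM, and in Tyr19Phe CDK9 cells at 90.0, 86.4 and 76.7 CPM. All inhibitor libraries lay below all libraries of the other groups, while those of WT and Tyr19Phe CDK9 cells overlapped. EPAS1 fell by 1.07 on the log2 scale with the inhibitor (SE 0.08, edgeR adjusted p = 4.41e-11). Its log2 fold change with Tyr19Phe CDK9 was -0.12 (SE 0.08, edgeR adjusted p = 0.341), and the direct comparison of the interventions gave 0.95 (SE 0.08, edgeR adjusted p = 1.75e-10). In bulk RNA, fewer cells that express a gene and less RNA per cell cannot be told apart.

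HIF1A (ENSG00000100644, GRCh38 chromosome 14 from 61695513 to 61748259) was at 1481, 1389 and 1508 CPM in WT CDK9 cells. It was at 1374, 1321 and 1343 CPM with the inhibitor and at 1266, 1141 and 1270 CPM in Tyr19Phe CDK9 cells. The 3 groups did not overlap, with WT CDK9 cells highest and Tyr19Phe CDK9 cells lowest. The log2 fold change with Tyr19Phe CDK9 was -0.25 (SE 0.04, edgeR adjusted p = 6.06e-06). With the inhibitor it was -0.12 (SE 0.04, edgeR adjusted p = 0.0743), which was not called. It was called in 6 of 17 alternatives, namely by DESeq2 (adjusted p = 0.0493), and by edgeR without a filter on low counts (adjusted p = 0.0487), with a replicate block (0.0190), with only the 2 groups compared (0.0386), without WT CDK9 replicate 2 (0.0183) and without Tyr19Phe CDK9 replicate 2 (0.0360). Between the interventions it was -0.14 (SE 0.04, edgeR adjusted p = 0.00862), and the call was lost without ALK inhibitor replicate 1 (edgeR adjusted p = 0.0505) or Tyr19Phe CDK9 replicate 2 (edgeR adjusted p = 0.117). Per kilobase of listed gene length, HIF1A was at 283 CPM in WT CDK9 cells and EPAS1 at 12.6 CPM, so the level of HIF1A RNA was the higher by far in all 3 groups.

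The prolyl hydroxylases mark HIF alpha subunits for degradation in oxygen. EGLN1, the main one in most cells, was at 93.7, 93.2 and 97.7 CPM in WT CDK9 cells, 89.2, 90.9 and 94.0 CPM with the inhibitor and 83.3, 76.3 and 80.6 CPM in Tyr19Phe CDK9 cells. The Tyr19Phe CDK9 libraries lay below all others, and the other groups overlapped. In Tyr19Phe CDK9 cells EGLN1 fell by 0.24 on the log2 scale (SE 0.06, edgeR adjusted p = 0.00315), and the inhibitor gave a log2 fold change of -0.05 (SE 0.06, edgeR adjusted p = 0.770). Between the interventions the log2 fold change was -0.19 (SE 0.06, edgeR adjusted p = 0.0198). This last call was lost without ALK inhibitor replicate 3 (edgeR adjusted p = 0.0943), Tyr19Phe CDK9 replicate 2 (edgeR adjusted p = 0.113), Tyr19Phe CDK9 replicate 3 (edgeR adjusted p = 0.0513) or both libraries with fewer detected genes (edgeR adjusted p = 0.0788). EGLN3, a hydroxylase that is itself a HIF target, was at 0.151 to 1.64 CPM, and its interval with the inhibitor reached from -1.45 to 1.44 on the log2 scale, so that a change was not detectable at this depth.

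The secreted and matrix targets of HIF in the list were VEGFA, ADM, ANGPTL4, P4HA1, P4HA2 and LOX. ANGPTL4, a secreted inhibitor of lipoprotein lipase, was at 11.0, 16.3 and 9.89 CPM in WT CDK9 cells, 25.4, 16.8 and 18.7 CPM with the inhibitor and 12.1, 18.4 and 17.3 CPM in Tyr19Phe CDK9 cells. The inhibitor libraries lay above those of WT CDK9 cells, the lowest of them close to WT CDK9 replicate 2, and Tyr19Phe CDK9 cells overlapped with both. The inhibitor gave a log2 fold change of 0.72 (SE 0.17, edgeR adjusted p = 0.00932). That call was lost without WT CDK9 replicate 1 (edgeR adjusted p = 0.0841), WT CDK9 replicate 3 (edgeR adjusted p = 0.0740) or ALK inhibitor replicate 1 (edgeR adjusted p = 0.137). With Tyr19Phe CDK9 the log2 fold change was 0.36 (SE 0.17, edgeR adjusted p = 0.159), which was called without WT CDK9 replicate 2 (edgeR adjusted p = 0.0154) or Tyr19Phe CDK9 replicate 1 (edgeR adjusted p = 0.0401).

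The others of this role were not called in the main edgeR fit in any comparison. VEGFA, the growth factor that drives blood vessel formation, averaged 213 ± 4.96, 198 ± 9.86 and 195 ± 6.51 CPM in WT CDK9, inhibitor-treated and Tyr19Phe CDK9 cells (SD, n = 3). For VEGFA the log2 fold change against WT CDK9 cells was -0.11 after the inhibitor (SE 0.05, edgeR adjusted p = 0.262) and -0.13 with Tyr19Phe CDK9 (SE 0.05, edgeR adjusted p = 0.0578). The latter was called by DESeq2 (adjusted p = 0.0432) and with the replicate number as a block (edgeR adjusted p = 0.0446). ADM, P4HA1, P4HA2 and LOX, which encode the vasodilator peptide adrenomedullin, the collagen prolyl hydroxylase subunits and the collagen crosslinker lysyl oxidase, had log2 fold changes between -0.14 and 0.17 against WT CDK9 cells. SRFBP1 on the opposite strand overlaps 81.6% of the span of LOX, at a mean of 436 counts per library against 793 for LOX. Whether the counting used strand is not given in the sources used here, so the level of LOX is uncertain. P4HA1 was among the steadiest, at 81.4 ± 3.03, 81.3 ± 2.09 and 81.7 ± 2.56 CPM (SD, n = 3) in WT CDK9, inhibitor-treated and Tyr19Phe CDK9 cells.

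Among the pH and stress targets, CA12 encodes a membrane carbonic anhydrase that hydrates carbon dioxide outside the cell. CA12 (ENSG00000074410, GRCh38 chromosome 15 from 63321378 to 63382161) was at 19.7, 16.4 and 17.3 CPM in WT CDK9 cells. It was at 29.8, 33.5 and 30.0 CPM with the ALK inhibitor and at 10.3, 8.44 and 8.04 CPM in Tyr19Phe CDK9 cells. The 3 groups were fully separate, with the inhibitor libraries highest and the Tyr19Phe CDK9 libraries lowest. CA12 rose by 0.80 on the log2 scale with the inhibitor (SE 0.12, edgeR adjusted p = 2.61e-05) and fell by 0.99 with Tyr19Phe CDK9 (SE 0.13, edgeR adjusted p = 5.07e-07). The direct comparison of the interventions gave -1.80 (SE 0.13, edgeR adjusted p = 1.01e-12), a level 0.288 times that of inhibitor-treated cells. It was the only member called in opposite directions against WT CDK9 cells, and its calls held in all 17 alternatives of each comparison.

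CA9, a related carbonic anhydrase and a classic marker of HIF activity, had at most 3 counts in a library. It was at 0.103, 0 and 0 CPM in WT CDK9 cells, 0.142, 0 and 0.103 CPM with the inhibitor and 0, 0.0712 and 0 CPM in Tyr19Phe CDK9 cells. All 9 values were at or below the floor of 3 counts, so neither expression of CA9 nor a difference between groups was detectable at this depth.

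DDIT4 encodes REDD1, an inhibitor of mTORC1 signaling that is induced by hypoxia and other stresses. DDIT4 (ENSG00000168209, GRCh38 chromosome 10 from 72273920 to 72276036) was at 1.64, 3.69 and 2.03 CPM in WT CDK9 cells, 6.74, 4.45 and 3.67 CPM with the inhibitor and 8.70, 11.1 and 6.90 CPM in Tyr19Phe CDK9 cells. The Tyr19Phe CDK9 libraries were all above the others, while ALK inhibitor replicate 3 lay just below WT CDK9 replicate 2. The log2 fold change was 1.86 with Tyr19Phe CDK9 (SE 0.27, edgeR adjusted p = 3.74e-06), a rise of 3.62-fold from a low level. With the inhibitor it was 1.02 (SE 0.28, edgeR adjusted p = 0.0253). This call was lost without WT CDK9 replicate 1 (edgeR adjusted p = 0.187), WT CDK9 replicate 3 (edgeR adjusted p = 0.105) or ALK inhibitor replicate 1 (edgeR adjusted p = 0.236). It was also lost when only these 2 groups were fitted, with all their libraries kept (edgeR adjusted p = 0.0597). Between the interventions it was 0.84 (SE 0.25, edgeR adjusted p = 0.0147). This was not called without ALK inhibitor replicate 2 (edgeR adjusted p = 0.0574), ALK inhibitor replicate 3 (edgeR adjusted p = 0.104) or Tyr19Phe CDK9 replicate 2 (edgeR adjusted p = 0.123).

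BNIP3, which directs mitochondria to autophagy, was at 69.5, 78.7 and 71.2 CPM in WT CDK9 cells, 57.9, 58.0 and 62.9 CPM with the inhibitor and 57.1, 52.2 and 56.7 CPM in Tyr19Phe CDK9 cells. The WT CDK9 libraries were above all others. With Tyr19Phe CDK9, BNIP3 fell by 0.40 on the log2 scale (SE 0.07, edgeR adjusted p = 8.35e-05) and with the inhibitor by 0.30 (SE 0.07, edgeR adjusted p = 0.0108). The inhibitor call was lost without WT CDK9 replicate 2 (edgeR adjusted p = 0.111), ALK inhibitor replicate 1 (edgeR adjusted p = 0.0671) or ALK inhibitor replicate 2, which has fewer detected genes (edgeR adjusted p = 0.0619). The table lists 39 pseudogenes of BNIP3, which together held 9.42% as many counts as the gene, so its level is uncertain to that extent. Its relative BNIP3L and the stress response gene NDRG1 were not called in any comparison, with log2 fold changes between -0.09 and 0.01 against WT CDK9 cells.

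**Figure D2:**
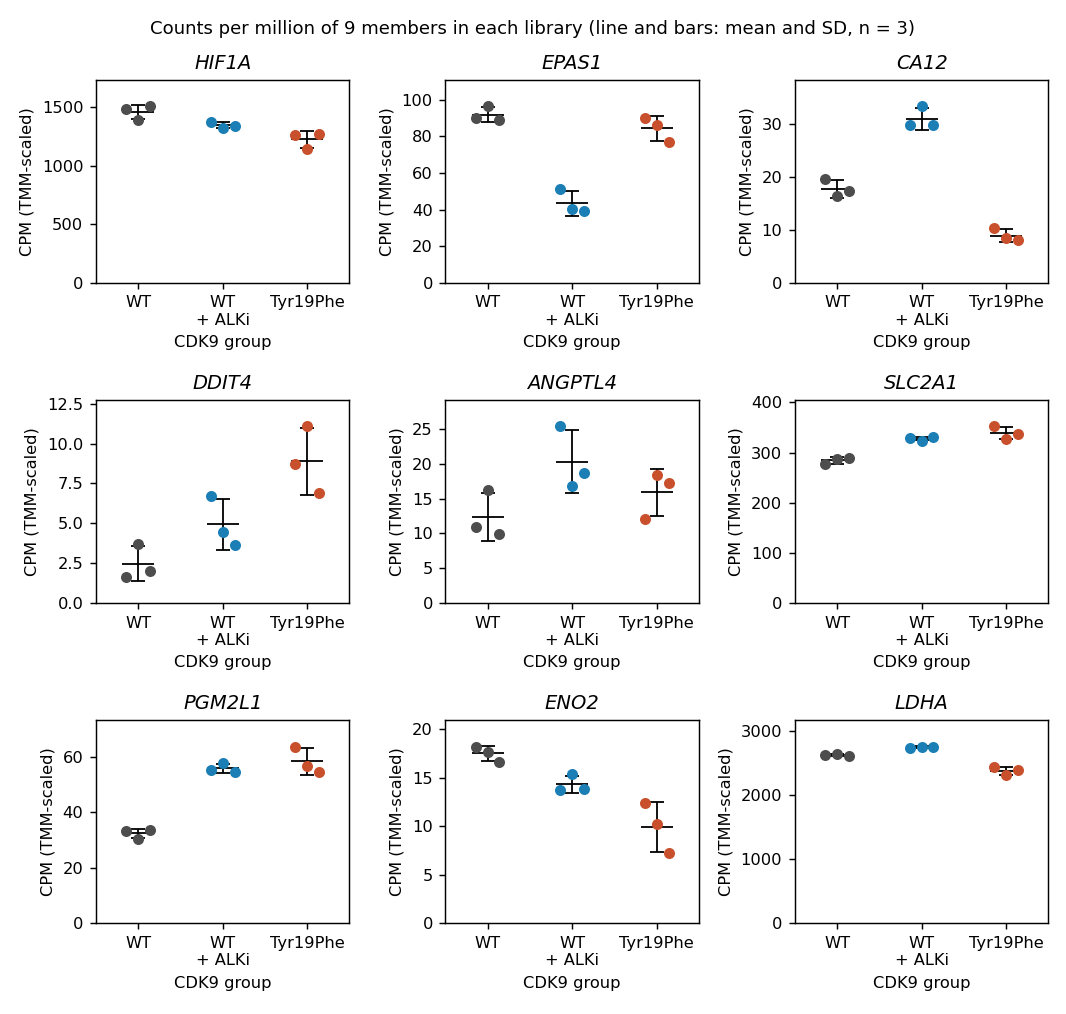
CPM of 9 members in each of the 9 libraries (points), with the mean and SD of each group (line and bars, n = 3) and axes that start at 0. EPAS1 is lowest in all 3 inhibitor libraries, CA12 rises with the inhibitor and falls with Tyr19Phe CDK9, and PGM2L1 is higher in both groups than in WT CDK9 cells.

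HIFs bind DNA at the letters ACGTG or GCGTG, and promoter sequences are shown for 4 members that were called in different directions: CA12, up with the inhibitor and down with Tyr19Phe CDK9, DDIT4, higher in both, BNIP3, lower in both, and LDHA, lower with Tyr19Phe CDK9. RefSeq promoters on GRCh38.p14, from 250 bases before to 50 bases after the RefSeq start of the gene, were found for 37 of the 41 members. Both strands were searched, and ACGTG on one strand can overlap with ACGTG on the other in the letters CACGTG, which then count on each strand. ACGTG was present in 15 of the 37 member promoters (40.5%), against 21.6% of all 27305 promoters of the same length. GCGTG was present in 18 (48.6%, against 36.3%), and either motif in 27 (73.0%, against 48.4%). The stretches run 5′ to 3′ on the strand of the gene, with every match on either strand in capitals. CA12 is at chr15:63381797-63382096 on the minus strand, DDIT4 at chr10:72273674-72273973 on the plus strand, BNIP3 at chr10:131981874-131982173 on the minus strand and LDHA at chr11:18394313-18394612 on the plus strand.
CA12: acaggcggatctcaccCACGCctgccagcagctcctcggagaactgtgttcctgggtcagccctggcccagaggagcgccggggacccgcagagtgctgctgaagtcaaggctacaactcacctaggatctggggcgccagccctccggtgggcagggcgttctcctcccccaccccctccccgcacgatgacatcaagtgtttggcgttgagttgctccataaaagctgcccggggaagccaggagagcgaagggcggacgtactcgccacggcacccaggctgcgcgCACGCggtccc
DDIT4: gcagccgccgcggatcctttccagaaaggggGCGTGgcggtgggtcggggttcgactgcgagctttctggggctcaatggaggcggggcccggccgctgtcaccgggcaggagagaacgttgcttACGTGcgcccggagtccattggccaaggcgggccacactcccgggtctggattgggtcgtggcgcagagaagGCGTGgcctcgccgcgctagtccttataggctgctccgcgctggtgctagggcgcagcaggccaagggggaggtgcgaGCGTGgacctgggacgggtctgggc
BNIP3: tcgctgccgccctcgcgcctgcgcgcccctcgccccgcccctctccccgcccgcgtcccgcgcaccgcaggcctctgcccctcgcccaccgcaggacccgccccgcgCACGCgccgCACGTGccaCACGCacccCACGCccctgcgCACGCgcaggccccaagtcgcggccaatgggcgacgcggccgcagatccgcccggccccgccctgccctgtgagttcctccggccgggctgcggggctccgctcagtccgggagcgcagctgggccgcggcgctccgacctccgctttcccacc
LDHA: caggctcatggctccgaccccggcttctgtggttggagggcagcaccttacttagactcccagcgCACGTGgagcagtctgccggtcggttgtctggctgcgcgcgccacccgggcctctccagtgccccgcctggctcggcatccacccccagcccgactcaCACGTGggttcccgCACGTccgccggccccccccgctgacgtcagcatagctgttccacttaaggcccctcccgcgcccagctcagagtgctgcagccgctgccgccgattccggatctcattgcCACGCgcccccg
CA12 held 2 matches to GCGTG, and its promoter had no match to ACGTG in this window. DDIT4 held 1 match to ACGTG and 3 to GCGTG, BNIP3 held 2 and 4, and LDHA held 5 and 1. Members that rose and members that fell both held the letters, and a match describes the sequence without showing that a factor binds there.

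The transporters in the list carry glucose in and lactate out. SLC2A1, the glucose transporter GLUT1, was at 277, 288 and 290 CPM in WT CDK9 cells, 330, 323 and 330 CPM with the inhibitor and 352, 327 and 337 CPM in Tyr19Phe CDK9 cells. All WT CDK9 libraries were below all others, and the other groups overlapped. SLC2A1 rose by 0.20 on the log2 scale with the inhibitor (SE 0.04, edgeR adjusted p = 0.00149) and by 0.25 with Tyr19Phe CDK9 (SE 0.04, edgeR adjusted p = 2.57e-05), and the interventions differed by 0.05 (SE 0.04, edgeR adjusted p = 0.473). SLC2A3, the high-affinity glucose transporter GLUT3, had at most 1 count in a library and was not tested.

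SLC16A3, the lactate exporter MCT4, was at 164, 179 and 148 CPM in WT CDK9 cells, 193, 182 and 168 CPM with the inhibitor and 145, 159 and 142 CPM in Tyr19Phe CDK9 cells. The WT CDK9 libraries overlapped with both other groups, whereas those did not overlap with each other. Accordingly the direct comparison of the interventions was called, with a log2 fold change of -0.28 (SE 0.06, edgeR adjusted p = 6.38e-04). Against WT CDK9 cells it was 0.14 with the inhibitor (SE 0.06, edgeR adjusted p = 0.222) and -0.14 with Tyr19Phe CDK9 (SE 0.06, edgeR adjusted p = 0.110). The first was called without WT CDK9 replicate 2 (edgeR adjusted p = 0.0455) and the second without WT CDK9 replicate 3 (edgeR adjusted p = 0.0235) or Tyr19Phe CDK9 replicate 2 (edgeR adjusted p = 0.0491). The gene CSNK1D on the opposite strand overlaps 67.5% of its span, and whether the counting used strand is not given in the sources used here.

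The upper steps of glycolysis, from hexokinase to aldolase, were covered by 8 members. With the inhibitor, edgeR called 0 of them, with 1 at an unadjusted p under 0.05 and 0 called by DESeq2, and their log2 fold changes lay between -0.31 and 0.11. HK1, the hexokinase that phosphorylates glucose in most tissues, was at 159, 163 and 156 CPM in WT CDK9 cells. It was at 168, 182 and 164 CPM with the inhibitor and 177, 193 and 193 CPM in Tyr19Phe CDK9 cells. The WT CDK9 libraries were below all others. With Tyr19Phe CDK9, HK1 rose by 0.24 on the log2 scale (SE 0.05, edgeR adjusted p = 7.52e-04). Between the interventions HK1 had a log2 fold change of 0.13 (SE 0.05, edgeR adjusted p = 0.0642), which was called without ALK inhibitor replicate 2 (edgeR adjusted p = 0.0242), without Tyr19Phe CDK9 replicate 1 (edgeR adjusted p = 0.0264) and in 2 further alternatives. HK2, the inducible hexokinase of many tumors, had a log2 fold change of -0.30 in Tyr19Phe against WT CDK9 cells (SE 0.11, edgeR adjusted p = 0.0547), which was called without ALK inhibitor replicate 2 (edgeR adjusted p = 0.0488).

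Phosphofructokinase, the main control step of the pathway, is built from subunits of 3 genes. PFKP was at 378, 381 and 400 CPM in WT CDK9 cells, 407, 417 and 401 CPM with the inhibitor and 433, 439 and 416 CPM in Tyr19Phe CDK9 cells. PFKL was at 219, 241 and 217 CPM in WT CDK9 cells, 229, 240 and 224 CPM with the inhibitor and 195, 208 and 204 CPM in Tyr19Phe CDK9 cells. For PFKP the WT CDK9 libraries were lowest, and for PFKL the Tyr19Phe CDK9 libraries were lowest. With Tyr19Phe CDK9, PFKP rose by 0.15 on the log2 scale (SE 0.04, edgeR adjusted p = 0.00496) and PFKL fell by 0.16 (SE 0.05, edgeR adjusted p = 0.0169). The PFKL call was lost without WT CDK9 replicate 2 (edgeR adjusted p = 0.166) or Tyr19Phe CDK9 replicate 1 (edgeR adjusted p = 0.0942). Between the interventions PFKL had a log2 fold change of -0.19 (SE 0.05, edgeR adjusted p = 0.00334), which was not called with both libraries of fewer detected genes left out (edgeR adjusted p = 0.0626).

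The muscle form PFKM, the isomerase GPI and the aldolases ALDOA and ALDOC were not called in any comparison. GPI was at 318 ± 6.51 CPM in WT CDK9 cells, 310 ± 6.60 CPM with the inhibitor and 313 ± 5.87 CPM in Tyr19Phe CDK9 cells (SD, n = 3). ALDOA was at only 27.0 to 32.8 CPM per library. Another annotated gene on the same strand covers 99.4% of the span of ALDOA and 100% of that of ALDOC, and how reads in the shared stretches were assigned is not given in the sources used here, so both levels are uncertain.

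The lower steps, from triose phosphate to pyruvate, held the most abundant members. GAPDH, which oxidizes glyceraldehyde phosphate and is widely used as a reference gene, was at 1569, 1619 and 1584 CPM in WT CDK9 cells, 1597, 1602 and 1584 CPM with the inhibitor and 1570, 1534 and 1550 CPM in Tyr19Phe CDK9 cells. The libraries of WT CDK9 cells overlapped with those of both other groups. The log2 fold change of GAPDH was 0.0032 with the inhibitor (SE 0.03, edgeR adjusted p = 0.983), with a 95% interval from -0.06 to 0.06, and -0.04 with Tyr19Phe CDK9 (SE 0.03, edgeR adjusted p = 0.461), with an interval from -0.10 to 0.02. Across the alternatives the value with the inhibitor lay between -0.0038 and 0.03. TPI1, PGK1 and ENO1, which catalyze neighboring steps, had log2 fold changes between -0.08 and 0.04 against WT CDK9 cells and were not called.

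PKM encodes pyruvate kinase, which makes pyruvate and ATP, and was at 3757, 3933 and 3724 CPM in WT CDK9 cells, 4141, 4200 and 4236 CPM with the inhibitor and 3747, 3762 and 3736 CPM in Tyr19Phe CDK9 cells. The inhibitor libraries were above all others. PKM rose by 0.14 on the log2 scale with the inhibitor (SE 0.03, edgeR adjusted p = 5.95e-04), and Tyr19Phe CDK9 gave a log2 fold change of -0.02 (SE 0.03, edgeR adjusted p = 0.651). The interventions differed by -0.16 (SE 0.03, edgeR adjusted p = 2.07e-05). The counts per gene do not separate the PKM1 and PKM2 splice forms.

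PGAM1, phosphoglycerate mutase, was at 281, 304 and 260 CPM in WT CDK9 cells, 267, 250 and 237 CPM with the inhibitor and 302, 299 and 296 CPM in Tyr19Phe CDK9 cells. The WT CDK9 libraries spread across both other groups, which did not overlap with each other. The interventions differed by 0.25 on the log2 scale (SE 0.05, edgeR adjusted p = 2.72e-04). With the inhibitor the log2 fold change was -0.16 (SE 0.05), with an edgeR adjusted p just above the threshold, and it was called in 6 of 17 alternatives. These were DESeq2 (adjusted p = 0.0366), and edgeR without a filter on low counts (adjusted p = 0.0205), with at least 10 counts in every library (0.0355), with a replicate block (0.0216), without WT CDK9 replicate 3 (0.00903) and without ALK inhibitor replicate 1 (0.0242). With Tyr19Phe CDK9 it was 0.09 (SE 0.05, edgeR adjusted p = 0.254), and it was called without WT CDK9 replicate 2 (edgeR adjusted p = 0.0397).

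ENO2, the enolase known from neurons, was at 18.2, 17.7 and 16.7 CPM in WT CDK9 cells, 13.8, 15.4 and 13.8 CPM with the inhibitor and 12.4, 10.2 and 7.21 CPM in Tyr19Phe CDK9 cells. The groups did not overlap, and Tyr19Phe CDK9 replicate 3, which has fewer detected genes, was the lowest. With Tyr19Phe CDK9, ENO2 fell by 0.82 on the log2 scale (SE 0.15, edgeR adjusted p = 1.69e-04), and this was called with each library left out in turn. The inhibitor gave a log2 fold change of -0.29 (SE 0.15, edgeR adjusted p = 0.368). Between the interventions it was -0.52 (SE 0.15, edgeR adjusted p = 0.0133), and -0.33 without Tyr19Phe CDK9 replicate 3 (edgeR adjusted p = 0.134), -0.47 without ALK inhibitor replicate 2 (edgeR adjusted p = 0.0577) and -0.28 without both (edgeR adjusted p = 0.261). LRRC23, which overlaps 5.01% of the span of ENO2 on the same strand, was lower in Tyr19Phe CDK9 cells as well (log2 fold change -1.05, edgeR adjusted p = 0.0134), at a mean of 68.0 counts per library against 298 for ENO2.

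LDHA, the lactate dehydrogenase subunit that favors lactate formation, was at 2632, 2633 and 2609 CPM in WT CDK9 cells. It was at 2728, 2754 and 2753 CPM with the inhibitor and at 2438, 2307 and 2385 CPM in Tyr19Phe CDK9 cells. The groups were separate, with the inhibitor libraries highest and the Tyr19Phe CDK9 libraries lowest. With Tyr19Phe CDK9, LDHA fell by 0.14 on the log2 scale (SE 0.03, edgeR adjusted p = 2.73e-04), and the inhibitor gave a log2 fold change of 0.06 (SE 0.03, edgeR adjusted p = 0.242). The interventions differed by -0.21 (SE 0.03, edgeR adjusted p = 9.06e-07). LDHB and PDK1, the kinase that blocks entry of pyruvate into mitochondria, were not called in any comparison, with log2 fold changes from -0.26 to 0.15 against WT CDK9 cells.

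PFKFB3 and PFKFB4 make and break a regulatory fructose bisphosphate that activates phosphofructokinase and differs from the one it makes. PFKFB3 averaged 115 ± 3.85, 121 ± 2.94 and 127 ± 4.75 CPM in WT CDK9, inhibitor-treated and Tyr19Phe CDK9 cells (SD, n = 3). Its log2 fold change with Tyr19Phe CDK9 was 0.15 (SE 0.05, edgeR adjusted p = 0.0536), close to the threshold. It was called in 8 of 17 alternatives. Of these, 3 left out WT CDK9 replicate 2 (edgeR adjusted p = 0.0397), ALK inhibitor replicate 2 (edgeR adjusted p = 0.0498) or Tyr19Phe CDK9 replicate 1 (edgeR adjusted p = 0.0341). The other 5 were the DESeq2 test (adjusted p = 0.0311), and edgeR with DESeq2's size factors (adjusted p = 0.0497), library size alone (0.0200), at least 10 counts in every library (0.0318) or a replicate block (0.0490). PFKFB4, at 6.48 to 9.11 CPM per library, had log2 fold changes of -0.06 and 0.07 against WT CDK9 cells.

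PGM2L1, an enzyme that makes glucose bisphosphate, the cofactor of phosphoglucomutase, had the smallest adjusted p of any member in the comparison of Tyr19Phe with WT CDK9 cells. PGM2L1 (ENSG00000165434, GRCh38 chromosome 11 from 74330318 to 74398473) was at 33.1, 30.6 and 33.7 CPM in WT CDK9 cells, 55.3, 57.8 and 54.5 CPM with the inhibitor and 63.7, 56.9 and 54.6 CPM in Tyr19Phe CDK9 cells. All WT CDK9 libraries were far below the others, and those overlapped with each other. The log2 fold change was 0.78 with the inhibitor (SE 0.08, edgeR adjusted p = 2.59e-08) and 0.85 with Tyr19Phe CDK9 (SE 0.08, edgeR adjusted p = 1.50e-09). Between the interventions it was 0.06 (SE 0.08, edgeR adjusted p = 0.627), with a 95% interval from -0.09 to 0.22. PGM1, the main phosphoglucomutase, which links glucose phosphate to glycogen, had log2 fold changes of 0.05 in both comparisons with WT CDK9 cells and was not called.

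**Figure D3:**
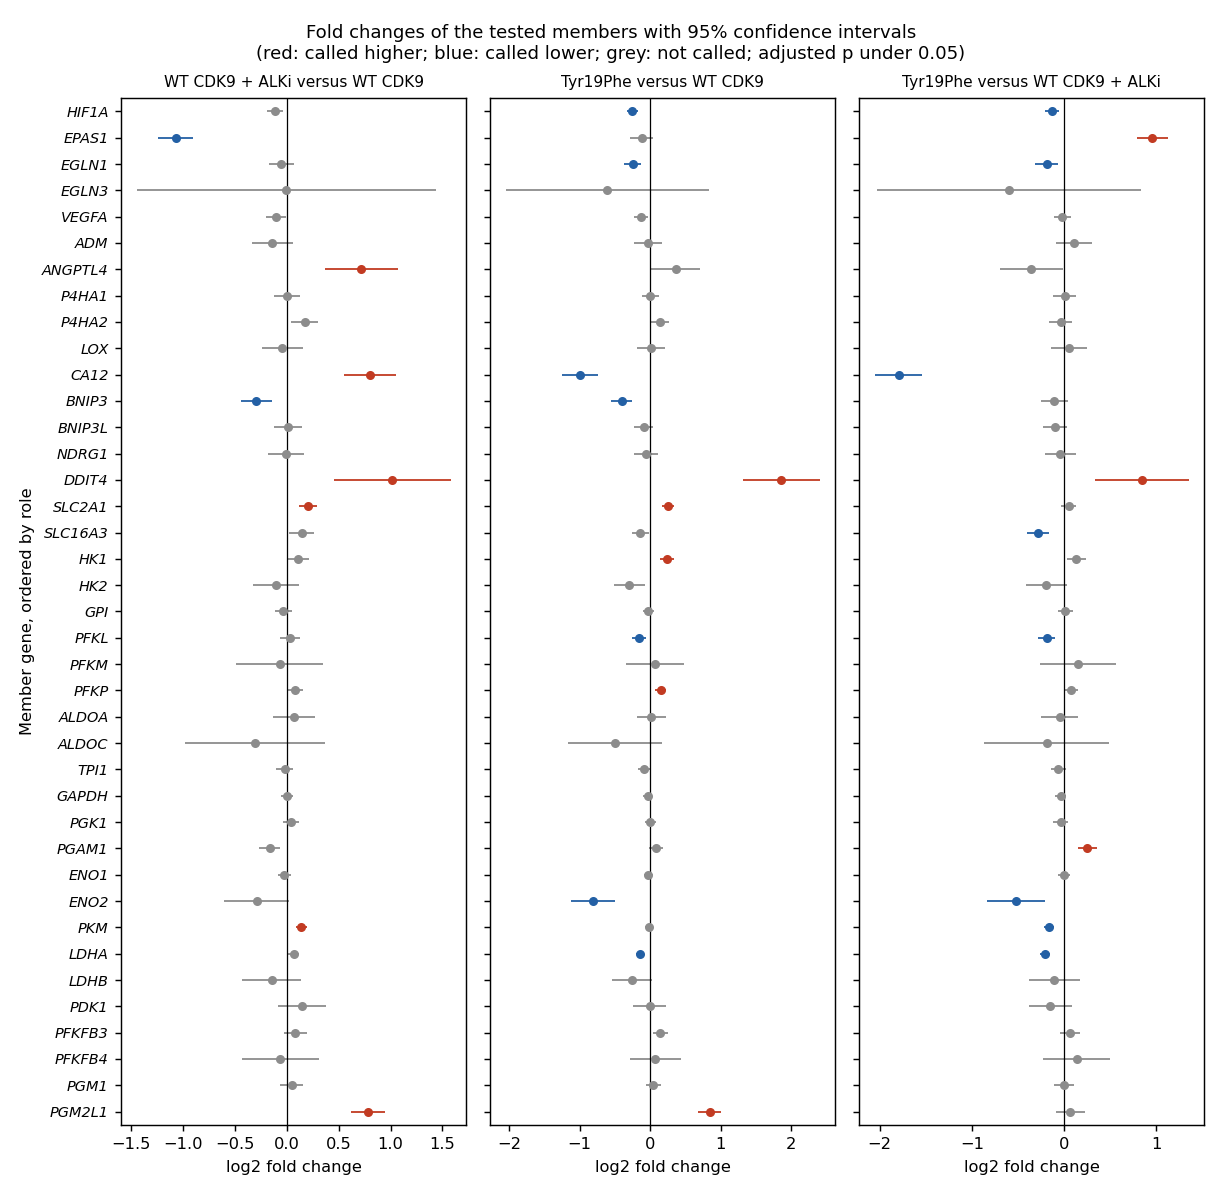
Log2 fold changes of the 39 tested members (rows, by role) in the 3 comparisons, with 95% confidence intervals, colored by the call at an adjusted p under 0.05. The interval of CA12 lies right of 0 with the inhibitor and left of 0 in both comparisons of Tyr19Phe CDK9 cells, and those of GAPDH, ENO1 and PGK1 are narrow and cross 0.

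The members differed widely in level when counted per kilobase of listed length. In WT CDK9 cells the order began with ENO1 at 598 CPM per kilobase, GAPDH at 534, PKM at 444, LDHA at 423 and HIF1A at 283. It ended, among tested members, with ALDOC at 1.04 and EGLN3 at 0.117 CPM per kilobase. The 17 enzymes of the glycolytic steps from hexokinase to lactate dehydrogenase summed to 13549 ± 303 CPM in WT CDK9 cells, 14010 ± 67.8 CPM with the inhibitor and 13168 ± 19.6 CPM in Tyr19Phe CDK9 cells (SD, n = 3). The inhibitor libraries, at 13945 to 14081 CPM, all lay above the WT CDK9 libraries, at 13364 to 13899 CPM, and the Tyr19Phe CDK9 libraries, at 13148 to 13187 CPM, all lay below. Much of these differences lay in PKM, with means of 3805 CPM in WT CDK9 cells and 4192 CPM with the inhibitor, and in LDHA, with 2625 CPM in WT and 2377 CPM in Tyr19Phe CDK9 cells. Of the 17 log2 fold changes, 9 were below 0 with the inhibitor and 11 with Tyr19Phe CDK9, so the sums do not describe a shift of all steps. The 14 HIF targets and prolyl hydroxylases summed to 774 ± 7.17 CPM, 770 ± 19.6 CPM and 724 ± 11.2 CPM in the same order of groups (SD, n = 3). With 3 libraries in each group, exact permutation could reach a p of 0.1 at the lowest, and these sums were not tested.

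Enzymes encoded by several genes were also compared as shares of their family, per kilobase, in each library. Of the hexokinase RNA of HK1 and HK2, HK2 made up 13.1%, 13.0% and 14.5% in WT CDK9 cells. It made up 12.4%, 10.5% and 13.0% with the inhibitor and 9.64%, 9.90% and 9.78% in Tyr19Phe CDK9 cells. The Tyr19Phe CDK9 libraries had the lowest share of HK2. PFKL made up 23.8 ± 1.35%, 23.2 ± 0.359% and 20.1 ± 0.688% of phosphofructokinase RNA in WT CDK9, inhibitor-treated and Tyr19Phe CDK9 cells, and PFKP 75.2 ± 1.40%, 75.9 ± 0.0677% and 78.9 ± 0.647% (SD, n = 3). ENO2 was a minor part of enolase RNA, at 0.681 ± 0.0404%, 0.566 ± 0.0474% and 0.394 ± 0.107% (SD, n = 3). LDHA made up at least 98.39% of lactate dehydrogenase RNA in every library.

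**Figure D4:**
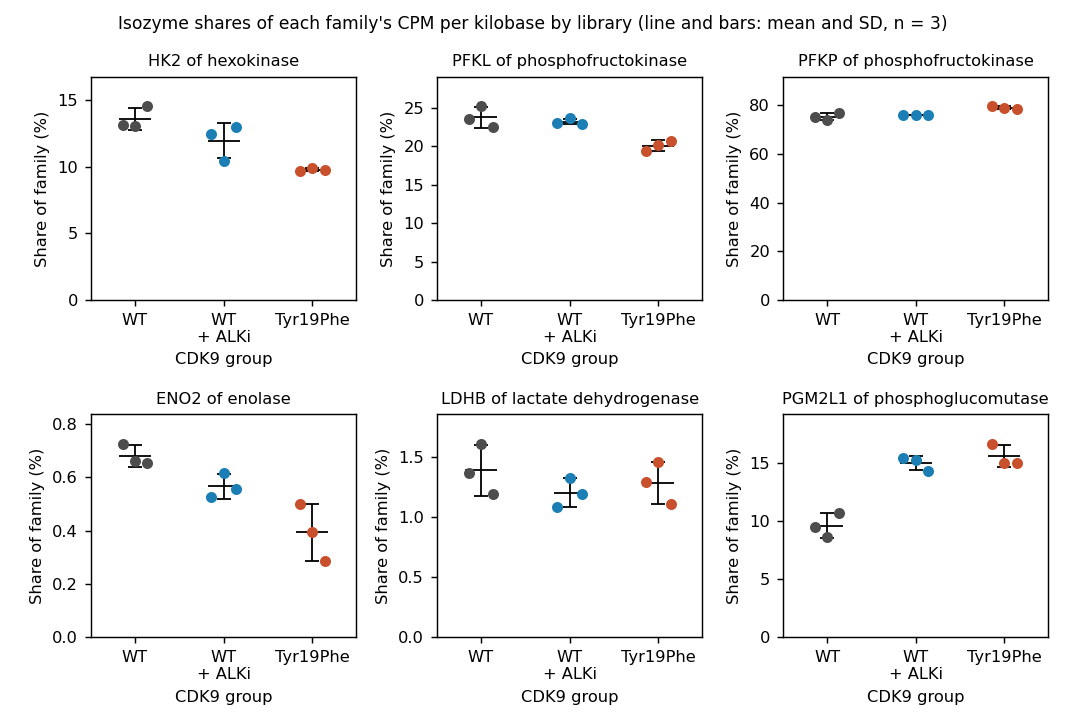
Shares of 6 genes in the summed CPM per kilobase of their family, in percent, in each library (points), with the mean and SD of each group (line and bars, n = 3) and axes that start at 0. HK2, PFKL and ENO2 have their lowest shares in the Tyr19Phe CDK9 libraries, and PGM2L1 has a higher share in both groups than in WT CDK9 cells.

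Each member was set beside the other tested genes of its 10 Mb segment, and no test of a shift of a segment was made. Over 263 segments with at least 20 tested genes, the medians against WT CDK9 cells had a 5th to 95th percentile range of -0.20 to 0.16 with Tyr19Phe CDK9 and of -0.06 to 0.06 with the inhibitor. For HIF1A, the 66 neighbors had a median log2 fold change of -0.19 with Tyr19Phe CDK9 beside -0.25 for HIF1A itself. That median lay inside the range above. Of these neighbors, 23 were called lower, where 10.4% of all tested genes were. Between the interventions, HIF1A was at -0.14 beside a median of -0.14. The neighbors of HK1 had a median of 0.18 beside 0.24 for HK1, and those of PFKP a median of 0.27 beside 0.15 for PFKP. Both medians lay above the range. Of these neighbors, 9 of 36 and 14 of 31 were called higher, where 7.61% of all tested genes were. PFKFB3, in the segment of PFKP, had neighbors at a median of 0.27 beside its own 0.15. For PFKL the values were -0.11, inside the range, and -0.16, and 13 of its 63 neighbors were called lower. P4HA1, which was not called, was at 0.0052 beside neighbors at a median of 0.17. How far the segments contribute to the results for HIF1A, HK1, PFKP, PFKFB3 and PFKL was not tested.

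For the members named next, the median of the neighbors lay closer to 0 than the member. With Tyr19Phe CDK9 this also held for HIF1A, HK1 and PFKL above. With Tyr19Phe CDK9, the median of the neighbors was -0.04 for CA12, 0.01 for ENO2, 0.04 for PGM2L1, -0.04 for LDHA, -0.04 for EGLN1 and 0.17 for DDIT4. For BNIP3 it was -0.08 and for SLC2A1 0.09. With the inhibitor it was -0.02 for EPAS1, -0.02 for CA12 and 3.4e-05 for PGM2L1. The median for DDIT4 with Tyr19Phe CDK9 lay above the range of the segments. Of its 83 neighbors, 17 were called higher, where 7.61% of all tested genes were. How far the segment contributes to the result for DDIT4 was not tested.

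**Figure D5:**
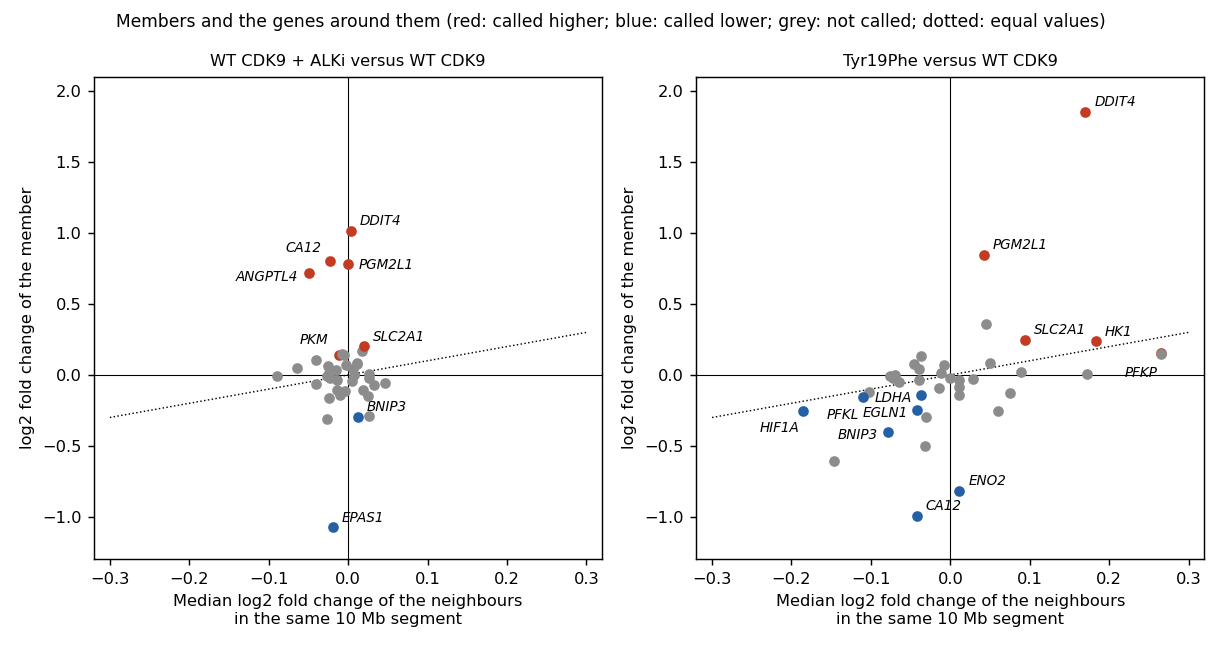
Log2 fold change of each tested member (vertical) against the median log2 fold change of the other tested genes in its 10 Mb segment (horizontal), with the inhibitor (left) and with Tyr19Phe CDK9 (right). Neighbor medians spread more widely with Tyr19Phe CDK9, where HIF1A, PFKL and HK1 lie near the dotted line of equal values and CA12, ENO2, PGM2L1 and DDIT4 lie far from it.

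Further genes of the pathways were read from lists that do not include the members. Of 14 tested regulators of the HIF pathway, 1 was called lower with the inhibitor, where 2.73% of all tested genes were. With Tyr19Phe CDK9, 1 was called higher and 2 lower, where 7.61% and 10.4% of all tested genes were. CITED2, which competes with HIF alpha subunits for a coactivator, went from 106 to 72.2 CPM with the inhibitor (log2 fold change -0.56, SE 0.06, edgeR adjusted p = 1.09e-07). ARNT2, a partner of HIF alpha subunits, went from 15.4 to 5.70 CPM with Tyr19Phe CDK9 (log2 fold change -1.43, SE 0.17, edgeR adjusted p = 7.37e-08). CREBBP, a coactivator of HIF, had a log2 fold change of -0.23 (SE 0.05, edgeR adjusted p = 7.99e-04), and HIF1AN, the asparagine hydroxylase that blocks the coactivator site, 0.25 (SE 0.08, edgeR adjusted p = 0.0214).

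Of 44 other HIF target genes tested, 5 were called higher and 2 lower with the inhibitor, where 1.82% and 2.73% of all tested genes were. With Tyr19Phe CDK9, 7 were called higher and 7 lower, where 7.61% and 10.4% of all tested genes were. LOXL4, a lysyl oxidase relative, fell by 0.90 on the log2 scale with the inhibitor (SE 0.16, edgeR adjusted p = 2.54e-04) and rose by 0.86 with Tyr19Phe CDK9 (SE 0.15, edgeR adjusted p = 4.28e-05), at 11.8, 6.31 and 21.4 CPM in WT CDK9, inhibitor-treated and Tyr19Phe CDK9 cells. These are the directions opposite to those of CA12. HMOX1, heme oxygenase, rose by 1.06 with Tyr19Phe CDK9 (SE 0.12, edgeR adjusted p = 5.49e-08) and by 0.49 with the inhibitor (SE 0.12, edgeR adjusted p = 0.0144). With Tyr19Phe CDK9, RIMKLA fell by 1.64 (SE 0.28, edgeR adjusted p = 4.57e-05), ERO1A, an oxidase of the endoplasmic reticulum, fell by 0.31 (SE 0.05, edgeR adjusted p = 4.61e-05), and LOXL2 rose by 0.28 (SE 0.04, edgeR adjusted p = 2.63e-06).

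CAV1, the caveola protein, had the smallest adjusted p of this list with the inhibitor and fell in both groups. It fell by 0.21 with the inhibitor (SE 0.03, edgeR adjusted p = 3.71e-05) and by 0.18 with Tyr19Phe CDK9 (SE 0.03, edgeR adjusted p = 1.17e-04). PLOD1, a lysyl hydroxylase of collagen, rose by 0.20 with the inhibitor (SE 0.04, edgeR adjusted p = 0.00184), and Tyr19Phe CDK9 gave -0.02 (SE 0.04, edgeR adjusted p = 0.857). The transcriptional repressors BHLHE40 and BHLHE41 were higher in both groups than in WT CDK9 cells. Their log2 fold changes were 0.29 and 0.65 with the inhibitor (edgeR adjusted p = 5.11e-05 and 0.00925) and 0.19 and 0.57 with Tyr19Phe CDK9 (edgeR adjusted p = 0.00197 and 0.00789).

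Of 34 other tested genes of glycolysis, pyruvate and lactate metabolism, 1 was called higher with the inhibitor, where 1.82% of all tested genes were. It was PDK2, a pyruvate dehydrogenase kinase (log2 fold change 0.54, SE 0.14, edgeR adjusted p = 0.0127). With Tyr19Phe CDK9, 1 was called higher and 4 lower, where 7.61% and 10.4% of all tested genes were. SLC2A6, a hexose transporter, rose by 0.71 (SE 0.13, edgeR adjusted p = 1.49e-04). GPD2, the mitochondrial glycerol phosphate dehydrogenase that reoxidizes cytosolic NADH, fell by 0.69 (SE 0.10, edgeR adjusted p = 1.77e-06), and MPC2, a subunit of the mitochondrial pyruvate carrier, fell by 0.50 (SE 0.11, edgeR adjusted p = 7.56e-04).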

How the data were processed

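Bulk RNA from 9 SKOV3 libraries was measured as counts per gene. The authors deposited whole-number counts, not normalized, for 58735 genes; the submitters' processing notes name CASAVA, HISAT2 2.0.5, featureCounts 1.5.0-p3 and the build GRCh38 (hg38). The annotation release and the strand setting of the counting are not given in the sources used here. Groups and replicate numbers came from the sample labels. The members and lists were chosen with earlier results of these data known.

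Software was R 4.3.3 (edgeR 4.0.16, limma 3.58.1, and DESeq2 1.42.0 for comparison) and Python 3.11.15 (numpy 2.4.6; pandas 2.3.3; matplotlib 3.10.9). edgeR's filterByExpr, at a minimum count of 10 and a minimum total of 15, left 16350 genes. Libraries were scaled by TMM, and edgeR's quasi-likelihood fit used all 9 of them with a separate mean for each group, leaving 6 residual degrees of freedom. P-values were adjusted by Benjamini and Hochberg's method across the genes tested in a comparison, and a gene was called at an adjusted p under 0.05. SE is the standard error of the log2 fold change. Confidence intervals are at 95%, and the floor of detection was 3 counts. The code was tested on simulated counts. Promoter sequences came from RefSeq.

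Values per library are given for members called in any comparison and for HIF1A, EPAS1, CA9 and GAPDH. The remaining members are given by counts and range, with means or fold changes for some of them that were chosen after the values were seen. From each pathway list, at most 5 called genes per comparison, taken from those with the smallest adjusted p, are named, and not every such gene is. LRRC23, CSNK1D and SRFBP1 were added after their values were seen because they overlap members. The alternatives were DESeq2's size factors, library size alone, the DESeq2 test, no filter on low counts, at least 10 counts in every library, the replicate number as a block, only the 2 groups compared, an adjusted p under 0.01, each library left out in turn, and both libraries with fewer detected genes left out. The numbers of alternatives given for single members, and the tallies of member calls lost or gained, leave out the adjusted p under 0.01.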

Additional observations from a re-analysis of the deposited data

How the results depend on the processing

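None of the called fold changes of members changed sign in the alternatives run. Of the 31 called member results over the 3 comparisons, 9 lost their call in at least 1 alternative, and of the 86 results that were not called, 10 gained one. The 2 members lower with the inhibitor became 4 with the DESeq2 test, 4 without a filter on low counts, 1 at an adjusted p under 0.01, and 1 with both libraries of fewer detected genes left out. With the replicate number as a block they became 4; libraries of the same number correlated between -0.0116 and 0.026 in their deviations from the group means, so the numbers were not taken to pair them. With 1 library left out at a time they ranged from 1 (without ALK inhibitor replicate 2) to 3. Of the 6 members higher with the inhibitor, ANGPTL4 and DDIT4 both lost their call without WT CDK9 replicate 1, WT CDK9 replicate 3 or ALK inhibitor replicate 1. The 5 members higher with Tyr19Phe CDK9 ranged from 5 to 8 (without WT CDK9 replicate 2). The 8 members lower in Tyr19Phe CDK9 than in inhibitor-treated cells became 5 with both libraries of fewer detected genes left out. The cause was not tested. An adjusted p under 0.01 changed the calls over all genes from 297 to 167 higher and 447 to 260 lower with the inhibitor, from 1245 to 715 higher with Tyr19Phe CDK9, and from 1565 to 935 higher and 1822 to 1153 lower between the interventions. Without WT CDK9 replicate 1, 293 genes were lower with the inhibitor. Depth limits the members with few counts, EGLN3, CA9 and SLC2A3, for which a change was not detectable.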

Other observations

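The pentose phosphate pathway branches from glycolysis at glucose phosphate and makes NADPH. Of 11 tested genes, 4 were called lower with Tyr19Phe CDK9, where 10.4% of all tested genes were, and 2 were called higher, where 7.61% were. The other 5 were not called, and 5 of the 11 log2 fold changes lay above 0 and 6 below. In that comparison PGD, phosphogluconate dehydrogenase, fell by 0.38 on the log2 scale (SE 0.05, edgeR adjusted p = 3.60e-07), TKT by 0.20 (SE 0.04, edgeR adjusted p = 3.74e-04) and TALDO1 by 0.18 (SE 0.04, edgeR adjusted p = 0.00247). RBKS, at 2.25 CPM in WT CDK9 cells, rose by 0.93 (SE 0.28, edgeR adjusted p = 0.0156), and PGLS rose by 0.24 (SE 0.08, edgeR adjusted p = 0.0380). With the inhibitor edgeR called 0 of the 11, with 4 at an unadjusted p under 0.05 and 0 called by DESeq2. In the direct comparison of the interventions, 4 were lower and 1 higher in Tyr19Phe CDK9 cells, where 11.1% and 9.57% of all tested genes were, with PGD at -0.42 (SE 0.05, edgeR adjusted p = 5.05e-08).

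Of 29 tested genes of glycogen and hexose phosphate metabolism, 1 was called lower with the inhibitor, where 2.73% of all tested genes were. With Tyr19Phe CDK9, 1 was called higher and 5 lower, where 7.61% and 10.4% of all tested genes were. PYGL, the glycogen phosphorylase that releases glucose phosphate from glycogen, had mean levels of 313 CPM in WT CDK9 cells, 199 CPM with the inhibitor and 237 CPM in Tyr19Phe CDK9 cells. It fell by 0.66 with the inhibitor (SE 0.05, edgeR adjusted p = 3.78e-12) and by 0.40 with Tyr19Phe CDK9 (SE 0.04, edgeR adjusted p = 3.44e-08). The lists were chosen with earlier results of these data known, and these values are given as a description.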
